A study of Mus musculus with 8 samples.

Results

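The proteasome genes described here code for everything around the catalytic 20S core particle: the 19S cap that unfolds substrates, the activators and the inhibitor that compete for the same docking surface, and the factors that help to build the particle. They were chosen by name, as all genes of the cluster table whose symbols begin with Psmc, Psmd, Psme, Psmf or Psmg, with Adrm1 and Pomp added. The rule found 26 of the 9229 genes in the table, and all 26 are accounted for below. In RefSeq 34 mouse protein-coding genes bear such names. The other 8 (Psmc3ip, Psmd9, Psme2b, Psme3, Psme3ip1, Psmg1, Psmg3 and Psmg4) had no entry for any cluster and were not read as absent from the cells.

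The cells came from dorsal root ganglia of C57BL/6 mice aged 21 to 30 days, with the ganglia of 4 mice combined per sample. Freshly dissociated living cells were exposed for 30 min to an antibody against the core subunit β5 and for 40 min to a fluorescent secondary antibody, and were sorted into NMP-positive and NMP-negative populations. NMP stands for the neuronal membrane proteasome, a core particle exposed at the neuronal plasma membrane that has been described as working without the cap. All cells of both populations share strain, age range and antibody treatment. The labels list 4 samples for each population, and within a population their descriptions differ only in what looks like a lane number, so they may be lanes of 1 library and not biological replicates, which the labels do not state. The table gives 20 clusters, each set against all other cells, and does not say which population a cell came from, so NMP-positive and NMP-negative cells are not compared here.

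A proteasome degrades proteins inside the barrel of its core particle, whose entry gate is closed at rest. The 19S cap recognises ubiquitin-tagged proteins, removes the ubiquitin, unfolds the chain with a ring of ATPases and opens the gate. The PA28 and PA200 activators bind the same barrel ends without ATP, and PA28 is best known for its induction by interferon. In sensory neurons this machinery has to serve a cell body in the ganglion and an axon that reaches the skin or another organ.

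Every log2 fold change and every percentage of cells below was taken from the authors' deposited table unless a sentence says that it was computed. Calls of higher or lower were made at a deposited adjusted p-value under 0.05, with the direction given by the sign of the fold change. These p-values treat cells as units and the clusters were built from the same expression values, so the filter sorts entries and tests nothing. The table lists a gene for a cluster only at an absolute log2 fold change of at least 0.25 and a p-value of at most 0.01, with at least 10% of cells positive in the cluster or in the others. A missing entry therefore means a difference that was small, uncertain or in too few cells.

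The clusters carried the authors' names, 10 for neuron classes (40.8% of all cells by a computed estimate), 3 beginning with Low.UMI (28.6%) and 7 beginning with Unknown (30.7%). The meaning of the suffix 488p in 2 of the names is not stated. All 6 of 6 neuron markers were lower in each of the 7 Unknown clusters. The full marker list of 1 non-neuronal type was higher in each of them, namely endothelial in Unknown.1, satellite glia in Unknown.2, mural in Unknown.3, Schwann in Unknown.4, fibroblast in Unknown.5 and Unknown.6, and macrophage in Unknown.488p. Partial lists were also higher in some, such as 2 of 4 satellite glia markers in Unknown.4. No depth per cell is given. As a stand-in, the share of all listed genes that were detected in a smaller part of the cluster than of other cells was 98.1 to 98.6% in the Low.UMI clusters, 62.8 to 87.6% in the Unknown clusters, 66.3% in Peptidergic.488p and 11.5 to 25.1% in the other neuron clusters.

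The 26 genes were widely detected. The share of all cells with a transcript, computed from the deposited fractions and the estimated size of each cluster, ran from 30.9% for Psmf1 to 67.4% for Pomp, with a median of 54.7% against 34.6% for all genes of the table. The ATPase genes lay between 52.6 and 63.0%, the lid genes between 48.7 and 62.7% and the activator genes between 49.5 and 53.7%. Both listed chaperones of base assembly were at 36.3% (Psmd5) and 36.7% (Psmd10), the core assembly gene Psmg2 was at 32.5% and the ubiquitin receptor gene Adrm1 at 44.0%.

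Of the 520 possible pairs of gene and cluster, the table listed 194, and 161 of these were called. In 51 pairs the gene was higher (9.81%, where 10.6% of all pairs in the table were) and in 110 it was lower (21.2%, against 15.9%). Both kinds of call were unevenly spread over the clusters. In the Unknown clusters 101 of 182 pairs were lower (55.5%, where 27.1% of all pairs in these clusters were) and 2 were higher (1.1%, against 10.2%). In the Low.UMI clusters 30 of 78 pairs were higher (38.5%, against 10.9%) and 3 were lower (3.85%, against 20.6%). In the 10 named neuron clusters 19 of 260 pairs were higher (7.31%, against 10.9%) and 6 were lower (2.31%, against 6.72%). Among genes found in at least 30% of all cells, a background chosen after seeing the data, 40.6% of pairs were lower in the Unknown clusters and 17.0% were higher in the Low.UMI clusters, so both backgrounds moved toward the members' shares without reaching them.

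**Figure D1:**
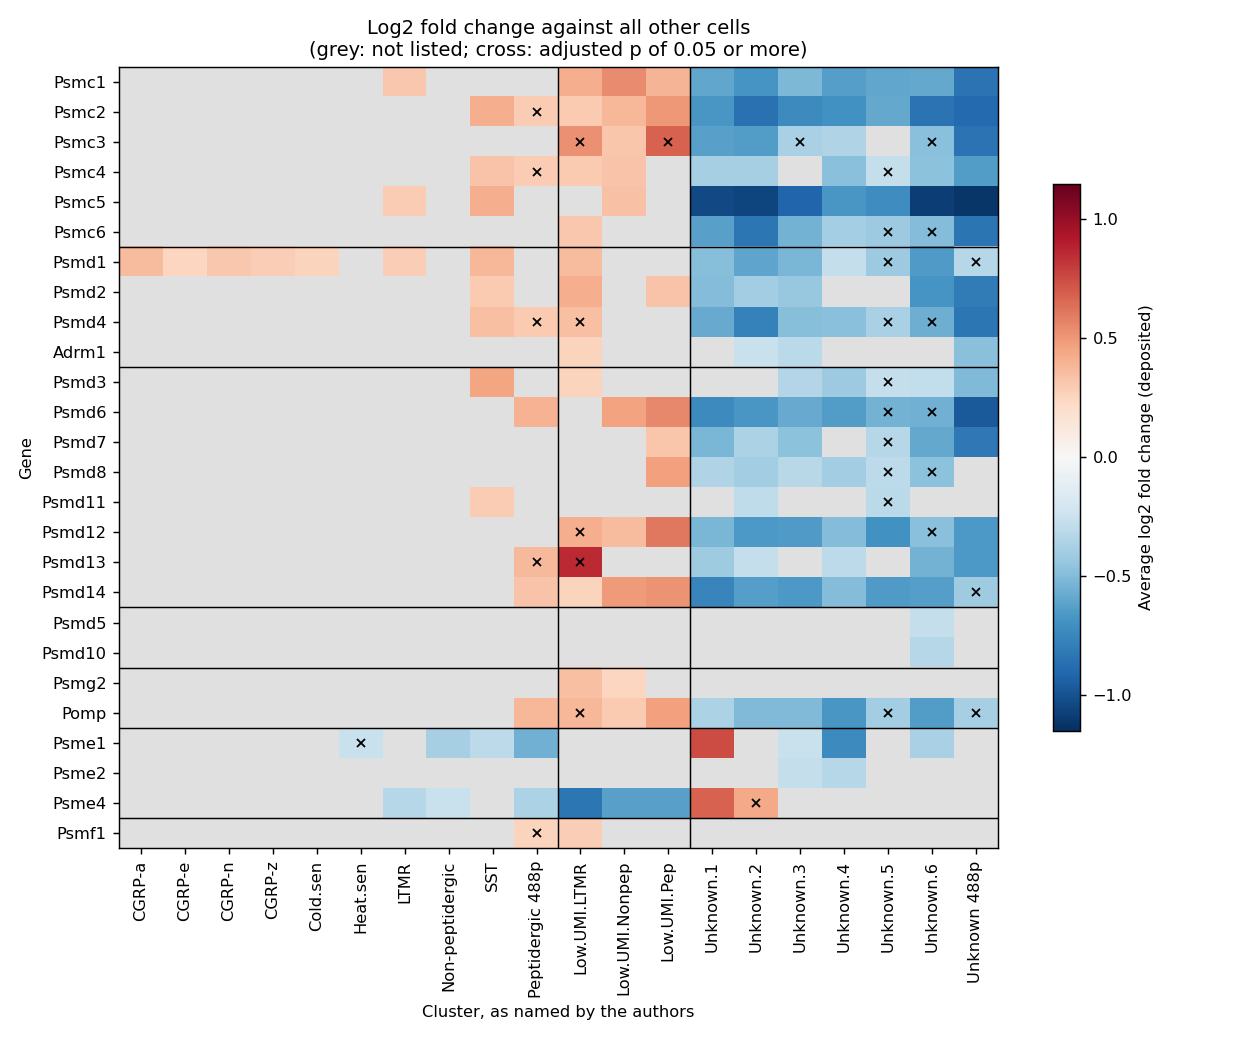
Deposited log2 fold change of the 26 genes (rows, grouped by role) in the 20 clusters (columns; vertical lines separate named neuron, Low.UMI and Unknown clusters), on a colour scale from blue (lower than in other cells) to red (higher). Grey squares were not listed and crosses mark an adjusted p of 0.05 or more. The subunits of the cap are blue over the Unknown clusters, down to -1.12 for Psmc5, while Psme1 (0.75) and Psme4 (0.68) are red in Unknown.1.

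The ATPases of the base, which form the unfolding ring, showed the pattern in its fullest form. Of their 42 pairs with an Unknown cluster 35 were lower (83.3%, where 27.1% of all pairs were) and 0 higher. Of 18 pairs with a Low.UMI cluster 11 were higher (61.1%, against 10.9%) and 0 lower. Of 60 pairs with a named neuron cluster 5 were higher (8.33%, below the 10.9% of all pairs) and 0 lower. With genes in at least 30% of all cells as background, the shares were 40.6, 17.0 and 14.5% in the same order. Psmc1, Psmc2 and Psmc5 were each lower in all 7 Unknown clusters.

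Psmc5, the ATPase gene also known as Sug1, had the most negative fold changes of all 26 genes. The authors' deposited table gave -1.12 in Unknown.488p, -1.08 in Unknown.6, -1.06 in Unknown.2, -1.04 in Unknown.1, -0.91 in Unknown.3, -0.71 in Unknown.5 and -0.67 in Unknown.4. Its transcript was in 26.9 to 48.9% of the cells of these clusters and in 63.4 to 65.3% of other cells. By fold change the Schwann marker cluster was least low, close to Unknown.5. By detection it was the lowest of these clusters (26.9%, against 64.1% of other cells). The fibroblast marker clusters Unknown.5 and Unknown.6 lay apart in fold change. Psmc5 was higher in SST (0.42), Low.UMI.Nonpep (0.34) and LTMR (0.29).

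Psmc1, whose product carries a tail that opens the core's gate, was at -0.85 in Unknown.488p and between -0.68 and -0.52 in the other 6 Unknown clusters in the authors' deposited table. It was higher in all 3 Low.UMI clusters, with 0.54 in Low.UMI.Nonpep, 0.42 in Low.UMI.LTMR and 0.39 in Low.UMI.Pep. Fold change and detection parted there: 26.5 to 31.4% of Low.UMI cells held the transcript, against 56.4 to 60.0% of other cells. In LTMR, where the fold change was 0.31, it was in 99.7% of cells. Over the 7 Unknown clusters together the computed share was 29.2%, and over the 3 Low.UMI clusters 29.3%, so nearly the same share of cells went with opposite signs of fold change.

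Psmc2, another ATPase of the ring, ran from -0.89 in Unknown.488p to -0.59 in Unknown.5, with a median of -0.73 over the 7 clusters. Its higher calls in the authors' deposited table were 0.50 in Low.UMI.Pep, 0.42 in SST, 0.38 in Low.UMI.Nonpep and 0.30 in Low.UMI.LTMR. Psmc4 was lower in 5 Unknown clusters, from -0.64 in Unknown.488p to -0.38 in Unknown.1 and Unknown.2, and higher in SST (0.33), Low.UMI.Nonpep (0.33) and Low.UMI.LTMR (0.30). Psmc6 was lower in 5 and higher in Low.UMI.LTMR alone of the 20 clusters (0.31). Psmc3, another ATPase with a gate-opening tail, was lower in 4 Unknown clusters and higher in Low.UMI.Nonpep (0.32). Its larger values in Low.UMI.Pep (0.68) and Low.UMI.LTMR (0.53) did not pass the adjusted p filter.

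The remaining subunits of the base are the scaffold genes Psmd1 and Psmd2 and the ubiquitin receptor genes Psmd4 and Adrm1. Together they were lower in 18 of 28 pairs with an Unknown cluster (64.3%, where 27.1% of all pairs were), with 0 higher. They were higher in 4 of 12 pairs with a Low.UMI cluster (33.3%, against 10.9%). In named neuron clusters they were higher in 9 of 40 pairs (22.5%, against 10.9%). There were 0 lower in either. With genes in at least 30% of all cells as background, the shares were 40.6, 17.0 and 14.5% in the same order.

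Psmd1 supplied 7 of those 9 and stood apart by its breadth, being the member called in the most clusters (13). In the authors' deposited table it was at 0.38 in SST, 0.36 in CGRP-a, 0.31 in CGRP-n, 0.28 in CGRP-z, 0.28 in LTMR, 0.26 in Cold.sen and 0.25 in CGRP-e. In CGRP-a (where 12.5% of all genes were higher), CGRP-e (9.77%), CGRP-n (9.61%), CGRP-z (11.3%) and Cold.sen (11.0%) it was the 1 member called. These are small differences close to the table's lower limit. In the 7 clusters with a higher call, 94.8 to 99.7% of cells held the transcript against 54.4 to 57.1% of other cells. Wider detection was not particular to Psmd1, since only 11.5 to 25.1% of all listed genes were less widely detected in these clusters. In the Unknown clusters its values ran from -0.65 to -0.27, of which those in Unknown.5 (-0.42) and Unknown.488p (-0.33) did not pass the filter.

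Psmd2 was at -0.80 in Unknown.488p, -0.68 in Unknown.6, -0.50 in Unknown.1, -0.44 in Unknown.3 and -0.40 in Unknown.2 and was higher in Low.UMI.LTMR (0.42), Low.UMI.Pep (0.33) and SST (0.30) in the authors' deposited table. Psmd4, the receptor long known as S5a, ran from -0.83 in Unknown.488p to -0.48 in Unknown.4 among its 5 lower calls and was higher in SST (0.35). Adrm1, the docking site of the deubiquitinase Uchl5 on the cap, was called in 4 clusters. It was at -0.48 in Unknown.488p, -0.31 in Unknown.3 and -0.26 in Unknown.2, with 8.9, 12.5 and 18.1% of cells positive, and at 0.26 in Low.UMI.LTMR with 13.0% positive. Unknown.488p thus held the lowest value of each of these receptor genes.

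The lid removes ubiquitin chains and holds the cap together. Its 8 genes were lower in 36 of 56 pairs with an Unknown cluster (64.3%, where 27.1% of all pairs were) and higher in 10 of 24 pairs with a Low.UMI cluster (41.7%, against 10.9%). In named neurons 4 of 80 pairs were higher (5.0%), below the 10.9% of all pairs. No call went in the opposite direction in any of the 3 sets. With genes in at least 30% of all cells as background, the shares were 40.6, 17.0 and 14.5% in the same order. Psmd14, the metalloprotease that cuts ubiquitin off the substrate, was lower in 6 Unknown clusters, at -0.76 in Unknown.1, -0.66 in Unknown.3, -0.65 in Unknown.5, -0.63 in Unknown.2, -0.63 in Unknown.6 and -0.50 in Unknown.4 in the authors' deposited table. The value in Unknown.488p (-0.41) did not pass the filter, so for this gene the macrophage marker cluster was not the lowest. It was higher in all 3 Low.UMI clusters (0.26 to 0.52) and in Peptidergic.488p (0.33, in 61.9% of cells against 54.1%).

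Psmd6 had the most negative value of the lid, -0.97 in Unknown.488p, and was at -0.73 in Unknown.1 and -0.58 to -0.67 in Unknown.2, Unknown.3 and Unknown.4. Its higher calls in the authors' deposited table were Low.UMI.Pep (0.55), Low.UMI.Nonpep (0.46) and Peptidergic.488p (0.40). Psmd12, a scaffold subunit, had the largest called fold change of the lid, 0.61 in Low.UMI.Pep, was at 0.36 in Low.UMI.Nonpep and was lower in 6 Unknown clusters (-0.70 to -0.50). Psmd3 reached 0.45 in SST, the largest called value of the 26 genes in any named neuron cluster, with 95.0% of SST cells positive against 45.8% of others. Psmd11 was called in SST (0.29) and Unknown.2 (-0.29) and in no other cluster. Psmd7 and Psmd8 were lower in 5 and 4 Unknown clusters and higher in Low.UMI.Pep (0.32 and 0.47). Psmd13 was lower in 5, and its 0.86 in Low.UMI.LTMR, the largest positive fold change listed for any member, did not pass the filter.

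Of the assembly factors, Pomp was the most widely called. Its product guides the maturation of the core particle. The authors' deposited table gave -0.67 in Unknown.4, -0.64 in Unknown.6, -0.51 in Unknown.2, -0.51 in Unknown.3 and -0.36 in Unknown.1. It was higher in Low.UMI.Pep (0.47), Peptidergic.488p (0.38, in 73.6% of cells against 67.2%) and Low.UMI.Nonpep (0.30). The Schwann marker cluster, least low in fold change for Psmc5, was lowest for Pomp. Its detection was the lowest of the Unknown clusters for both genes (26.9% for Psmc5 and 32.9% for Pomp). Psmg2, a chaperone of the core's outer ring, was higher in Low.UMI.LTMR (0.35) and Low.UMI.Nonpep (0.25) with 8.3% of cells positive in each. The base chaperones Psmd5 and Psmd10 (gankyrin) were called in Unknown.6 alone of the 20 clusters, at -0.27 and -0.33, with 7.1 and 5.0% of cells positive against 36.8 and 37.3%. For these rarer transcripts the listing of few clusters goes with low detection. The more widely detected Psme2 (49.5% of all cells) and Psmd11 (55.0%) were listed for few clusters too.

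**Figure D2:**
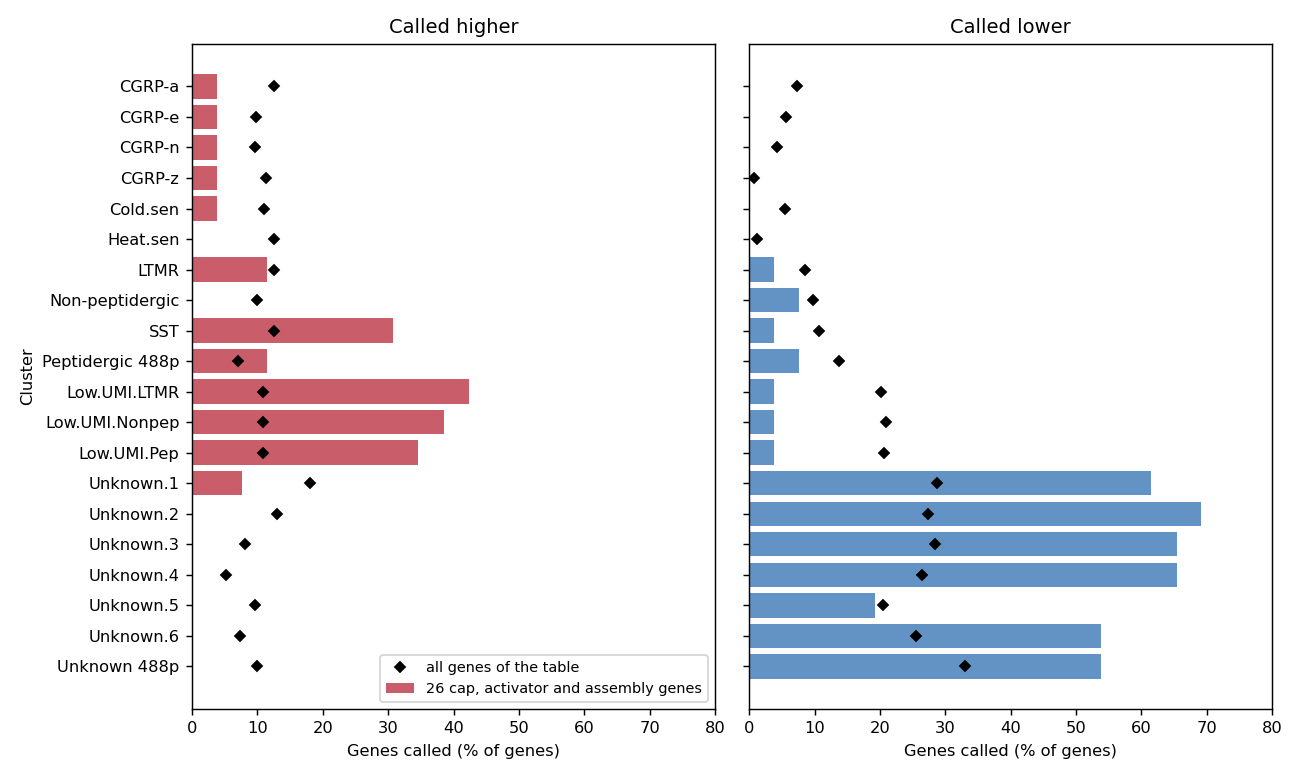
Percentage of the 26 genes (bars) and of all 9229 genes of the table (diamonds) called higher (left) and lower (right) at an adjusted p under 0.05 in each cluster. Bars exceed diamonds for higher calls in SST, Peptidergic.488p and the Low.UMI clusters, and for lower calls in the Unknown clusters other than Unknown.5 (19.2% against 20.4%).

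Cluster by cluster, 18 of the 26 genes were lower in Unknown.2 (69.2%, where 27.4% of all genes were), 17 in Unknown.3 (65.4%, against 28.4%), 17 in Unknown.4 (65.4%, against 26.4%), 16 in Unknown.1 (61.5%, against 28.8%), 14 in Unknown.488p (53.8%, against 33.0%), 14 in Unknown.6 (53.8%, against 25.5%) and 5 in Unknown.5 (19.2%, against 20.4%). No member was higher in Unknown.2 (where 13.0% of all genes were), Unknown.3 (8.05%), Unknown.4 (5.21%), Unknown.5 (9.67%), Unknown.6 (7.39%) or Unknown.488p (9.91%). Among genes in at least 30% of all cells, which all 26 members are, the shares lower were 40.4% in Unknown.2, 42.1% in Unknown.3, 38.7% in Unknown.4, 42.6% in Unknown.1, 49.9% in Unknown.488p, 39.6% in Unknown.6 and 31.0% in Unknown.5. Against these the members' share was below the background in Unknown.5 and near it in Unknown.488p. At an adjusted p under 1e-10 the members lower fell from 14 to 1 in Unknown.6 (3.85%, where 8.16% of all genes were), from 14 to 3 in Unknown.488p (11.5%, against 15.4%) and from 5 to 0 in Unknown.5 (against 11.0%), so in these 3 clusters the members' share was then below that of all genes. Of 15 members listed for Unknown.5, 10 missed the filter, and the median of the listed values (-0.42, against -0.33 for all listed genes) was negative there too. The median of the listed members was lowest in Unknown.488p (-0.80, against -0.40) and lay between -0.61 and -0.48 in the other 5 clusters, where all listed genes had medians of -0.39 to -0.31.

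In the Low.UMI clusters 11 members were higher in Low.UMI.LTMR (42.3%, against 10.9%), 10 in Low.UMI.Nonpep (38.5%, against 10.9%) and 9 in Low.UMI.Pep (34.6%, against 10.8%). Among genes in at least 30% of all cells 16.4, 17.1 and 17.5% were higher in these clusters. At an adjusted p under 1e-10 the 11 in Low.UMI.LTMR became 1 (3.85%, where 2.94% of all genes were). At that threshold 5 were higher in Low.UMI.Nonpep (19.2%, against 8.77%) and 5 in Low.UMI.Pep (19.2%, against 9.06%). The medians of the listed members were 0.35, 0.34 and 0.47, where all listed genes had -0.29, -0.32 and -0.32. In each of the 30 higher pairs the transcript was nevertheless found in fewer of the cluster's cells, as a share, than of other cells. The part of low depth per cell in these fold changes was not tested. When detection also had to be in the same direction, 0 of the 30 pairs counted as higher.

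Among named neurons SST had the most members higher, 8 of 26 (30.8%, where 12.5% of all genes were), and 1 lower. In the authors' deposited table these were Psmd3 (0.45), Psmc5 (0.42), Psmc2 (0.42), Psmd1 (0.38), Psmd4 (0.35), Psmc4 (0.33), Psmd2 (0.30) and Psmd11 (0.29). All 8 belong to the base or the lid, and each was found in 94.8 to 97.2% of SST cells. Among genes in at least 30% of all cells 18.0% were higher in SST. Peptidergic.488p had 3 higher (11.5%, against 7.05%, or 9.48% among genes in at least 30% of all cells), namely Psmd6, Pomp and Psmd14, of which 0 passed an adjusted p under 1e-10 (where 3.51% of all genes did), and LTMR 3 (11.5%, against 12.5%), namely Psmc1, Psmc5 and Psmd1. The lower calls were 2 in Peptidergic.488p (7.69%, against 13.8%), 1 in LTMR (3.85%, against 8.46%) and 1 in SST (3.85%, against 10.7%). No member was lower in CGRP-a (where 7.26% of all genes were), CGRP-e (5.65%), CGRP-n (4.32%), CGRP-z (0.715%) or Cold.sen (5.44%). Heat.sen had 0 higher (where 12.6% of all genes were) and 0 lower (against 1.18%), and Non-peptidergic 0 higher (against 9.86%) and 2 lower (7.69%, against 9.71%). None of the 8 values in SST reached a fold change of 0.5.

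**Figure D3:**
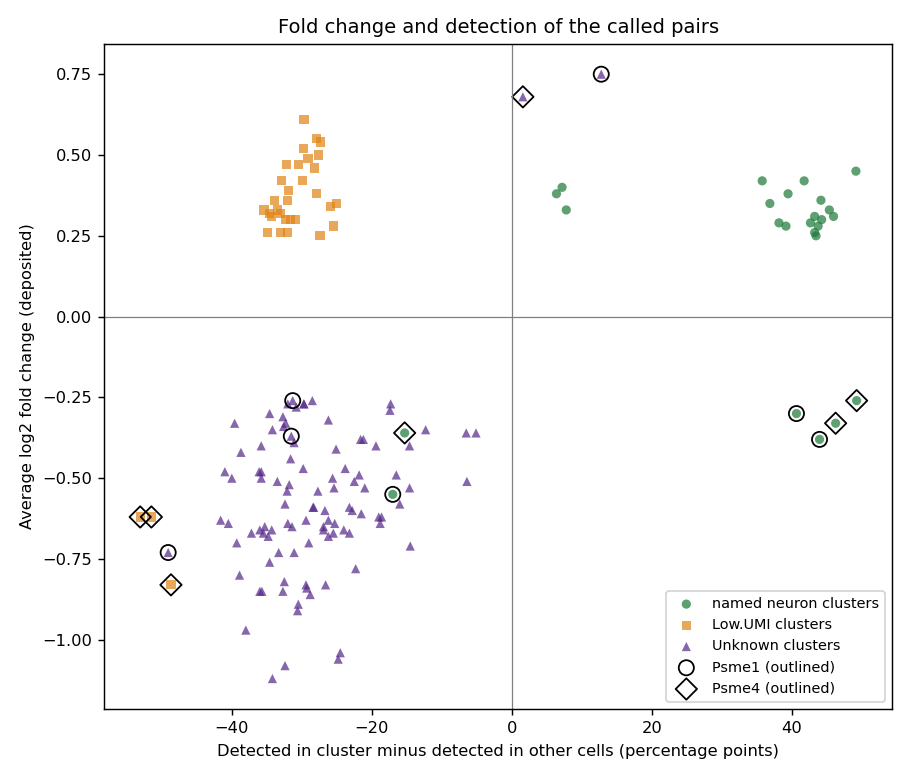
Deposited log2 fold change (vertical) against the difference in the share of cells with the transcript (horizontal, percentage points) for the 161 called pairs. Pairs of the Low.UMI clusters (squares) with a positive fold change all lie left of 0. Outlined pairs are Psme1 (circles) and Psme4 (diamonds), and the 4 pairs at the lower right, with a negative fold change but wider detection, all belong to them.

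In the Unknown clusters 5 of the 21 activator pairs were lower (23.8%, where 27.1% of all pairs were). In 2 pairs the gene was higher (9.52%, against 10.2%). Both shares are near those of all pairs. Psme1 codes for the PA28 alpha subunit, which widens the range of peptides made for presentation by MHC class I. In the authors' deposited table it was at 0.75 in Unknown.1, in 65.3% of cells against 52.5%, and at -0.73 in Unknown.4, in 5.9% against 55.0%. The lower calls in neurons were -0.55 in Peptidergic.488p, -0.38 in Non-peptidergic and -0.30 in SST, and those in other Unknown clusters were -0.37 in Unknown.6 and -0.26 in Unknown.3. SST and Peptidergic.488p, where members of the cap were higher, thus had a lower call for Psme1, and Unknown.1, with 16 members lower, had a higher one.

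Psme4 codes for PA200, an activator of mainly nuclear proteasomes. It was at 0.68 in Unknown.1, in 53.1% of cells against 51.5%, and at 0.44 in Unknown.2, which missed the filter. It was lower in all 3 Low.UMI clusters in the authors' deposited table, at -0.83 in Low.UMI.LTMR (where 20.1% of all genes were lower), -0.62 in Low.UMI.Nonpep (21.0%) and -0.62 in Low.UMI.Pep (20.7%), and was found in 4.3, 6.1 and 6.0% of their cells. These are the 3 lower calls of the 26 genes in the Low.UMI clusters. Psme4 was also lower in Peptidergic.488p (-0.36), LTMR (-0.33) and Non-peptidergic (-0.26), and in LTMR and Non-peptidergic it was found in 96.1 and 98.3% of cells.

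In named neurons the 3 listed activators had 0 higher and 6 lower calls among 30 pairs (20.0% lower, where 6.72% of all pairs were). Of these 6, 4 do not count when detection must also be lower, since in SST, LTMR and Non-peptidergic 92.0 to 98.3% of cells held the transcript against 49.0 to 51.4% of other cells. The 2 higher calls were those of Psme1 and Psme4 in Unknown.1 (7.69% of the 26 genes, where 18.0% of all genes were higher). With no samples in the table, this difference between activators and cap was not tested. Psme2, which codes for the PA28 beta partner of Psme1, was lower in Unknown.4 (-0.33) and Unknown.3 (-0.27) in the authors' deposited table, as Psme1 was, but had no entry for Unknown.1. Reads of Psme2 can be hard to tell from its retrocopy Psme2b, and how the authors' counting treated them is not given. Psmf1, the gene of the inhibitor PI31, was called in Low.UMI.LTMR (0.28, in 6.1% of cells against 31.6%). Its 0.26 in Peptidergic.488p did not pass the filter.

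**Figure D4:**
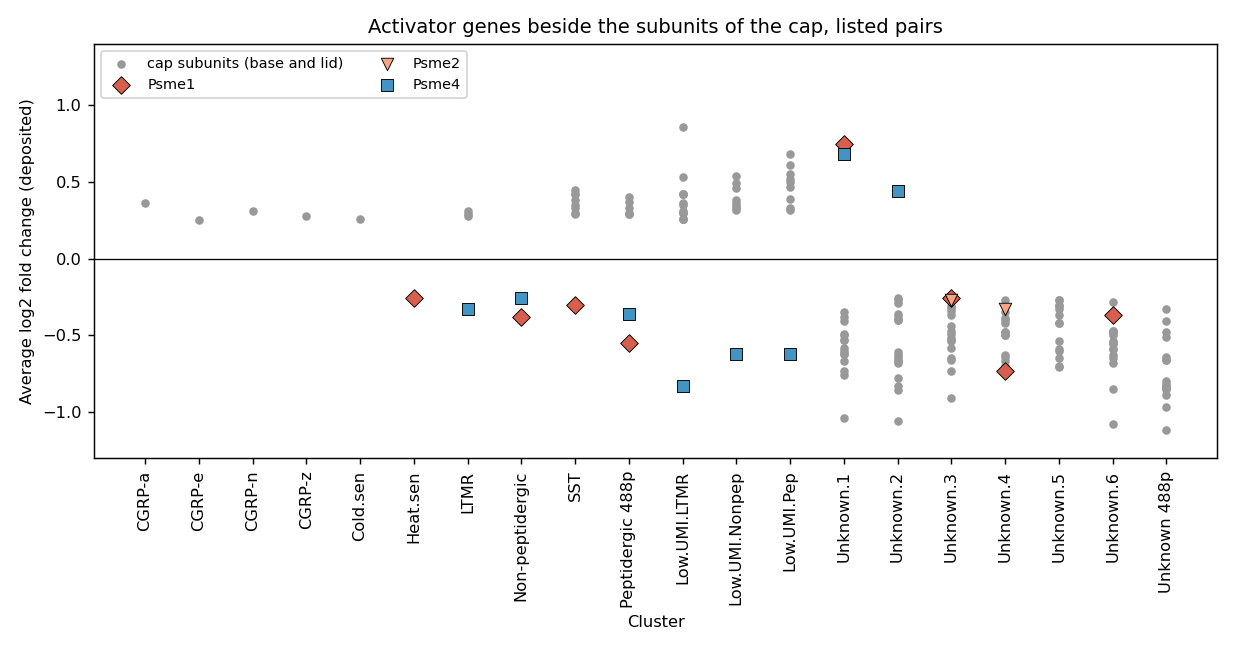
Deposited log2 fold changes of the activator genes Psme1 (diamonds), Psme2 (triangles) and Psme4 (squares) beside the 18 subunits of base and lid (grey points) in each cluster, for all listed pairs. In Unknown.1 Psme1 (0.75) and Psme4 (0.68) lie above 0 and all listed subunits of the cap below it. The order is reversed in Peptidergic.488p for both genes. It is also reversed in SST for Psme1 alone, and in LTMR and the Low.UMI clusters for Psme4 alone. The other gene has no entry in those clusters.

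Promoter sequence was available in RefSeq's GRCm38.p6 table for 22 of the 26 genes, with 24 promoters that reach from 250 bases before the start of the transcript to 50 after it. The files do not name the build used for counting, and the sequences were matched by symbol only. The GC box GGGCGG, the binding sequence of Sp1, was in 18 of 24 promoters on either strand (75.0%, against 35.7% of all 32851 promoters), and CCAAT, the NF-Y box, was in 6 (25.0%, against 37.4%). On the gene's strand alone the NF-Y box was in the same 6 promoters (25.0%, against 21.1%), so the direction of that comparison turns with the strand. The core of the antioxidant response element, TGACNNNGC, through which Nfe2l1 is known to raise proteasome genes, was in 4 (16.7%, against 12.4%), which is near the share of all promoters. The core of the interferon-stimulated response element, with GAAA on either side of any pair of bases, was searched after the level of Psme1 in Unknown.1 had been seen. It was in Psme1 and Psmd4 (8.33%, against 3.44%), of which Psmd4 was lower in Unknown.1. A match is a string of letters and no evidence of binding.

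The promoters of the 4 genes with the antioxidant response core and of Psme1 are shown to let the motifs be seen in place, since the former include 3 genes of the cap, each lower in Unknown clusters, and Psme4, which was higher in Unknown.1. Each sequence is given 5′ to 3′ on the gene's strand, from 250 bases before the start to 30 after it, and capitals mark the matches of the 4 motifs on either strand. In Psme4 the antioxidant response core spans the start itself, and in Psme1 the interferon-type match lies just after it, on the opposite strand.
Adrm1, chr2:180171338-180171617, plus strand: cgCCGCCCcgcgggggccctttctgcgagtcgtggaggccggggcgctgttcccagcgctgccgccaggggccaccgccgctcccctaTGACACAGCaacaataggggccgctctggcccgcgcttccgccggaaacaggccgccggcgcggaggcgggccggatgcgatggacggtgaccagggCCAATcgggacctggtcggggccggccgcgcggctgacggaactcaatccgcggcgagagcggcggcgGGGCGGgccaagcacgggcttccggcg
Psmc6, chr14:45329574-45329853, plus strand: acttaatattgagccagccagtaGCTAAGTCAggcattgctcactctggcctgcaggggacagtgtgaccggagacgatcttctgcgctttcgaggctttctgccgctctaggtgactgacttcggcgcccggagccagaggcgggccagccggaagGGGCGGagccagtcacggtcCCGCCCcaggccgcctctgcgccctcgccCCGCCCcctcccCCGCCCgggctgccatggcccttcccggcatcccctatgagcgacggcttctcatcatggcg
Psmd12, chr11:107479278-107479557, plus strand: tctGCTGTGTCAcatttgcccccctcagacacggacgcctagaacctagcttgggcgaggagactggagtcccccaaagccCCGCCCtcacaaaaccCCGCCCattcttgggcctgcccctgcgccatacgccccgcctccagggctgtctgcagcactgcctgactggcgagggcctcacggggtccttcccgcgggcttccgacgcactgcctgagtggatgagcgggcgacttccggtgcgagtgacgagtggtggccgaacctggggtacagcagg
Psme4, chr11:30771525-30771804, plus strand: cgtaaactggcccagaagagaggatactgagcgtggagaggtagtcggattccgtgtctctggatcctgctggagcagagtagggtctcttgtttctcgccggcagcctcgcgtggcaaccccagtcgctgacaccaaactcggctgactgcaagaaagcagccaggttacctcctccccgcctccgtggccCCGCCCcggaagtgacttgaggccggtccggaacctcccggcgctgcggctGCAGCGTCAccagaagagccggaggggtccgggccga
Psme1, chr14:55578244-55578523, plus strand: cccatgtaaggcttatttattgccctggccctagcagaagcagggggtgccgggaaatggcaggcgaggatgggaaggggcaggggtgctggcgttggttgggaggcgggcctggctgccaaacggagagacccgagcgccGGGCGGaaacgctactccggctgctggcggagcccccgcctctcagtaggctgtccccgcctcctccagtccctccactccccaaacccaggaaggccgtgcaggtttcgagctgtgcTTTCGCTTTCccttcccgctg

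The genes of the 20S core itself, which the cap and the activators serve, went in the same directions as the cap in the Unknown and Low.UMI clusters. Of 98 pairs of its 14 genes with an Unknown cluster 78 were lower (79.6%, where 27.1% of all pairs were) and 0 higher. Of 42 pairs with a Low.UMI cluster 17 were higher (40.5%, against 10.9%) and 0 lower. In named neuron clusters 19 of 140 pairs were higher (13.6%, against 10.9%) and 0 lower. Among genes in at least 30% of all cells, which all 14 are, 40.6% of Unknown pairs were lower and 17.0% of Low.UMI pairs higher. Of named neuron pairs of such genes 14.5% were higher, so the 13.6% is near that background. These 19 calls came from SST (7), Peptidergic.488p (7), Non-peptidergic (3) and LTMR (2). The medians of the listed core genes lay close to those of the cap, activator and assembly genes in several clusters, such as -0.61 for both in Unknown.2, -0.59 beside -0.53 in Unknown.1 and 0.34 beside 0.35 in SST. In Non-peptidergic they were opposite, 0.30 for 3 core genes, all called higher, beside -0.32, and in CGRP-e the 1 listed core gene was at -0.25 beside 0.25 and was not called. The immunoproteasome genes, interferon-inducible variants of the catalytic subunits, ran beside Psme1 in some clusters and not in others. In Unknown.1 the authors' deposited table gave 0.88 for Psmb8 and 0.53 for Psmb9, and in Unknown.4, where Psme1 was at -0.73, Psmb8 was at -0.41, in 0.5% of cells. The largest value of Psmb8 was 1.05 in Unknown.488p, where Psme1 had no entry, and it was also higher in CGRP-a (0.30), where Psme1 had none either. Its other calls in named neurons were lower, at -0.41 in Heat.sen, -0.41 in LTMR, -0.40 in Cold.sen and -0.29 in Non-peptidergic. Psme1 was lower in Non-peptidergic too (-0.38), missed the filter in Heat.sen (-0.26) and had no entry for LTMR or Cold.sen. Psmb8 was also lower in Low.UMI.LTMR (-0.37), where Psme1 had no entry, and in Unknown.3 (-0.32), where Psme1 was lower (-0.26). Psmb10 was higher in Low.UMI.Nonpep (0.33) and lower in Unknown.3, Unknown.6 and Unknown.4 (-0.43 to -0.31).

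Other factors that bind the proteasome or carry substrates to it were counted from a fixed list, of whose 16 names 14 were in the table. Of their 98 pairs with an Unknown cluster 50 were lower (51.0%, where 27.1% of all pairs were, or 40.6% among genes in at least 30% of all cells) and 3 higher. Of 42 pairs with a Low.UMI cluster 8 were higher (19.0%, against 10.9%) and 2 lower. Among genes in at least 30% of all cells 17.0% of pairs were higher in these clusters, so the 19.0% is near that background. Of 140 pairs with a named neuron cluster 21 were higher (15.0%, against 10.9%, or 14.5% among genes in at least 30% of all cells) and 1 lower, which is near the background. The deubiquitinase gene Usp14, whose product works on the cap, was lower in 6 Unknown clusters (-0.89 to -0.55 in the authors' deposited table) and higher in Low.UMI.Pep (0.64) and Low.UMI.Nonpep (0.42). Vcp, the segregase that feeds substrates to the cap, was lower in all 7 Unknown clusters (-0.95 to -0.51) and higher in SST (0.56) and Peptidergic.488p (0.36). Ecpas, whose product bridges cap and core, was at 0.73 in CGRP-e, 0.53 in SST, 0.51 in CGRP-a and 0.39 in CGRP-n in the authors' deposited table, but lower in Low.UMI.Pep (-0.43) and Low.UMI.Nonpep (-0.54). The small cap subunit gene Sem1, which the name rule leaves out, was higher in Unknown.488p (0.44), a cluster in which 14 of the 26 genes were lower.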

How the data were processed

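Droplet single-cell RNA sequencing with 3′ counting was applied to sorted dorsal root ganglion cells, 4 NMP-positive and 4 NMP-negative samples, per the labels, which may be lanes of 1 library each. The extraction protocol in the labels names a nuclei procedure. Seurat is named in the submitters' processing notes. Not given in the sources used here are whether cells or nuclei were loaded, the aligner, build, annotation, cell filters, doublet treatment, normalization and clustering settings.

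Per the file headers, the authors deposited p-values, raw and adjusted, for each gene and cluster. The average log2 fold change and both detected fractions, of the cluster and of the remaining cells, were deposited with them, and fractions are printed here as percentages. The adjusted p-value is the p-value times 32285. The table holds 56694 pairs. Depth and cell numbers are unknown, so no interval is given. No column holds a sample, and no test was run.

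Counts of calls were read beside the share of all 9229 genes called alike. The overall share of cells with a gene was computed by solving the clusters' sizes by least squares from pairs differing by at least 5 percentage points (6742 genes, root mean square residual 0.0256 percentage points), a step tested on simulated data. Computation used Python 3.11.15, numpy 2.4.6 and pandas 2.3.3. The rule for named genes took the 12 members called in the most clusters, the extremes of each role and 8 genes fixed by name, of which Psme3 had no entry; some of their calls are given as ranges. The members, lists and markers were chosen with earlier results of these data known. Alternatives changed the call threshold, minimum fold, detection, clusters, background, weights and motif strand.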

Additional observations from a re-analysis of the deposited data

How the results depend on the processing

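The count of 51 higher pairs became 28 at an adjusted p under 1e-10, 7 at an absolute log2 fold change of at least 0.5, 21 when detection had to go in the same direction and 21 without the Low.UMI clusters. The count of 110 lower pairs became 52, 69 and 106 under the first 3 of these, and 9 without the Unknown clusters. The pooled share of all pairs was not computed under these alternatives. By a measure chosen after the data were seen, clusters in which the members' share higher exceeded that of all genes numbered 5, and 2 at the larger fold change and 2 with matching detection. For lower calls there were 6, and between 4 and 7 under every alternative run. On the gene's strand alone the antioxidant response core was in 4.17% of member promoters (6.38% of all), the interferon-type core in 0.0% (1.74%), the GC box in 54.2% (23.4%) and the NF-Y box in 25.0% (21.1%). Weights from larger differences left the median overall share at 54.7%. A stricter fold of 0.5 changed 20 of 40 counts per cluster and 35 of 52 counts per gene by over 1.5 times. Leaving out genes caught by name alone changed nothing, as none is in the table. The planned search of protein motifs was not run, since no protein sequences were used here. No paired analysis was possible because the table holds no samples. Without depth or cell numbers, no share of cells carries an interval.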

Other observations

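Genes around the pathway's control and its substrate tag divided between clusters in both directions. Nfe2l1, the transcription factor that restores proteasome genes when the particle is inhibited, was lower in Unknown.488p (-1.05), Unknown.2 (-0.92), Unknown.6 (-0.69) and Unknown.4 (-0.68) and higher in Low.UMI.Nonpep (0.60) in the authors' deposited table. Its relative Nfe2l2, the regulator of oxidative stress genes, was higher in Unknown.488p (1.53) and Unknown.1 (0.85). It was lower in 6 named neuron clusters and all 3 Low.UMI clusters. In CGRP-e, CGRP-n, LTMR and SST among these, 75.6 to 93.5% of cells held the transcript, against 41.6 to 42.7% of other cells. In Cold.sen and Peptidergic.488p it was in 30.2 and 29.9% of cells, against 44.7 and 44.5%.

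Ubb, which codes for polyubiquitin, was lower in 6 Unknown clusters, from -0.84 in Unknown.2 to -0.36 in Unknown.4, and higher in Low.UMI.Nonpep (0.51), Low.UMI.Pep (0.49), Peptidergic.488p (0.45), Non-peptidergic (0.34) and Low.UMI.LTMR (0.28), per the authors' deposited table.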
